A study of Mus musculus with 3 samples.

Results

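The MAP kinase cascade kinases studied here were the 46 genes whose symbol on the array was Mapk, Map2k, Map3k, Map4k or Mapkapk followed by a number. They were picked by name alone out of 26840 genes with a symbol, and they were covered by 108 of 46056 probes. The rule used no measured value, but it was set with earlier results of these data known. The set held 5 MAP4K, 18 MAP3K, 7 MAP2K, 13 MAPK and 3 MAPKAPK genes. RNA came from RAW 264.7 cells, a transformed mouse macrophage-like line grown in culture, and the 3 groups had 1 array each. One group received lipopolysaccharide (LPS), the Gram-negative cell wall component that TLR4 detects, at 50 ng/mL and no lactobacilli. In the CRL1505 + LPS and CRL1506 + LPS groups, the same cells had first been kept for 24 h with 5e+07 cells/mL of *Lacticaseibacillus rhamnosus* CRL1505 or *Lactiplantibacillus plantarum* CRL1506, washed, and then given the same LPS. The comparisons ask whether prior contact with either strain changed the response to LPS. The LPS step lasted 12 h by the design text and 3 h by the sample descriptions, and this difference was not settled. Cells without LPS were not analysed here, so every ratio is relative to cells that had also received LPS.

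In a MAP kinase cascade, a MAP3K phosphorylates a MAP2K, the MAP2K phosphorylates a MAP kinase on both residues of its activation loop, and the MAP kinase then acts on transcription factors and on further kinases of the MAPKAPK group. MAP4K kinases act above the MAP3K level in several of these chains. In macrophages, TLR4 drives the ERK, JNK and p38 branches within minutes of LPS contact, largely through TAK1 (*Map3k7*) and TPL2 (*Map3k8*), and these branches control cytokine transcription and the stability of cytokine mRNAs. The cascades are switched by phosphorylation, which the arrays do not measure, so the values below are transcript levels only.

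With 1 array per group no test was possible, and no p-value or replicate error is given. One slide, scanned once, carried the arrays for LPS alone and for CRL1506, and a second slide with its own scan carried the array for CRL1505, so an effect of CRL1505 cannot be told apart from one of the slide. Between 48.5% (CRL1505 + LPS) and 55.3% (CRL1506 + LPS) of the 59305 gene spots were well above background. Measurement error could be judged only within arrays. The SD of the log2 ratio over repeated spots of a probe was 0.04 to 0.05, and different probes of one gene had an SD of 0.23 for CRL1505 and 0.21 for CRL1506, all as medians. Of the 11 macrophage markers found on the array, *Cd68*, *Lyz2*, *Cd14* and *Aif1* were bright on all 3 arrays, while *Mrc1* was well above background only on the LPS array. Others differed between the LPS, CRL1505 + LPS and CRL1506 + LPS arrays in scaled intensity, which is the array signal after the 75th percentile of every array was set to that of the LPS array. *Adgre1* measured 4544, 21940 and 9109 and *Fcgr1* 4727, 24962 and 9117, past 2-fold higher with CRL1505 for both and with CRL1506 for *Adgre1*. *Csf1r* measured 120050, 43403 and 65663, past 2-fold lower with CRL1505. Within 2-fold of LPS, *Tlr4* measured 3712, 3553 and 2092, *Spi1* 2491, 1912 and 1471, and *Itgam* 9145, 10172 and 7997. All 3 epithelial markers (*Krt8*, *Krt18*, *Cdh1*) were dim on all 3. Among markers of other cell types *Cd3e* (from 777 to 891), *Cd3d*, *Ms4a1* and *Pecam1* were well above background on all 3 arrays. Against a dim LPS array, *Col1a2* and *Cdh5* were higher with CRL1505 by log2 bounds of 1.81 and 1.57, and *Col1a1* with CRL1506 by 1.85. The part of these markers in the results was not tested.

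Most of the cascade was transcribed in all 3 groups, and few of its members differed by 2-fold. Of the 46 kinases, 43 were well above background with LPS alone, 40 after CRL1505 and 42 after CRL1506. *Map3k19*, *Map3k21* and *Mapk4* were dim throughout, with no array well above background. Compared with LPS alone, 1 of 43 kinases compared was at least 2-fold higher with CRL1505 (*Map2k1*) and 4 were at least 2-fold lower (*Map2k6*, *Map3k6*, *Map3k12* and *Map4k2*). Over all 15603 genes compared, 9.93% were higher and 8.41% lower by that threshold, beside 2.33% and 9.30% of the kinases, so the share of lower kinases was close to the background. With CRL1506, none of 43 kinases compared was past 2-fold either way by its brightest probe, against 5.67% higher and 3.53% lower among 16279 genes. *Mapk12* entered that count only by a bound. Other measured probes of *Map2k5*, *Map3k8* and *Mapk8* were past 2-fold higher with CRL1506, at log2 ratios of 1.46, 1.58 and 1.12. In bulk cultures like these, fewer cells carrying a transcript and less of that transcript per cell cannot be told apart.

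Between the strains, *Map2k1* and *Map2k4* were at least 2-fold higher with CRL1505 than with CRL1506, and *Map3k6* and *Map3k12* at least 2-fold lower, out of 42 kinases compared. The background in this comparison was 9.02% higher and 7.47% lower. It shares its arrays with the other comparisons and adds no independent measurement. At 1.5-fold, *Mapk6*, *Map3k2*, *Map3k8* and *Mapkapk2* were also higher, at log2 ratios of 0.97, 0.68, 0.71 and 0.65, which made 6 of 42 kinases beside 19% of all genes compared. *Map4k2*, *Map3k10* and *Map4k1* were also lower by 1.5-fold or more, at -0.77, -0.70 and -0.64, which made 5 of 42 beside 17.3% of all genes. Probes on the other side of 0 from the probe read were present for *Map3k8* (-0.97), *Mapk6* (-0.44), *Map2k4* (-0.24) and *Map3k10* (0.21).

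Against LPS alone, a threshold of 1.5-fold added mostly lower kinases. With CRL1505, 3 kinases were higher (*Map2k1*, *Map2k4* and *Mapk6*), against 19.1% of all genes compared, and 10 were lower, against 17.2%. Those 10 were *Map4k1*, *Map4k2*, *Map3k3*, *Map3k5*, *Map3k6*, *Map3k9*, *Map3k12*, *Map3k14*, *Map2k5* and *Map2k6*. With CRL1506, *Map4k3* was higher, against 11.7% of all genes, and *Map2k6*, *Map3k5*, *Map3k8* and *Mapk12* were lower, against 9.23%. *Map2k6* and *Map3k5* were thus past 1.5-fold lower with both strains, in comparisons that share the LPS array.

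**Figure D1:**
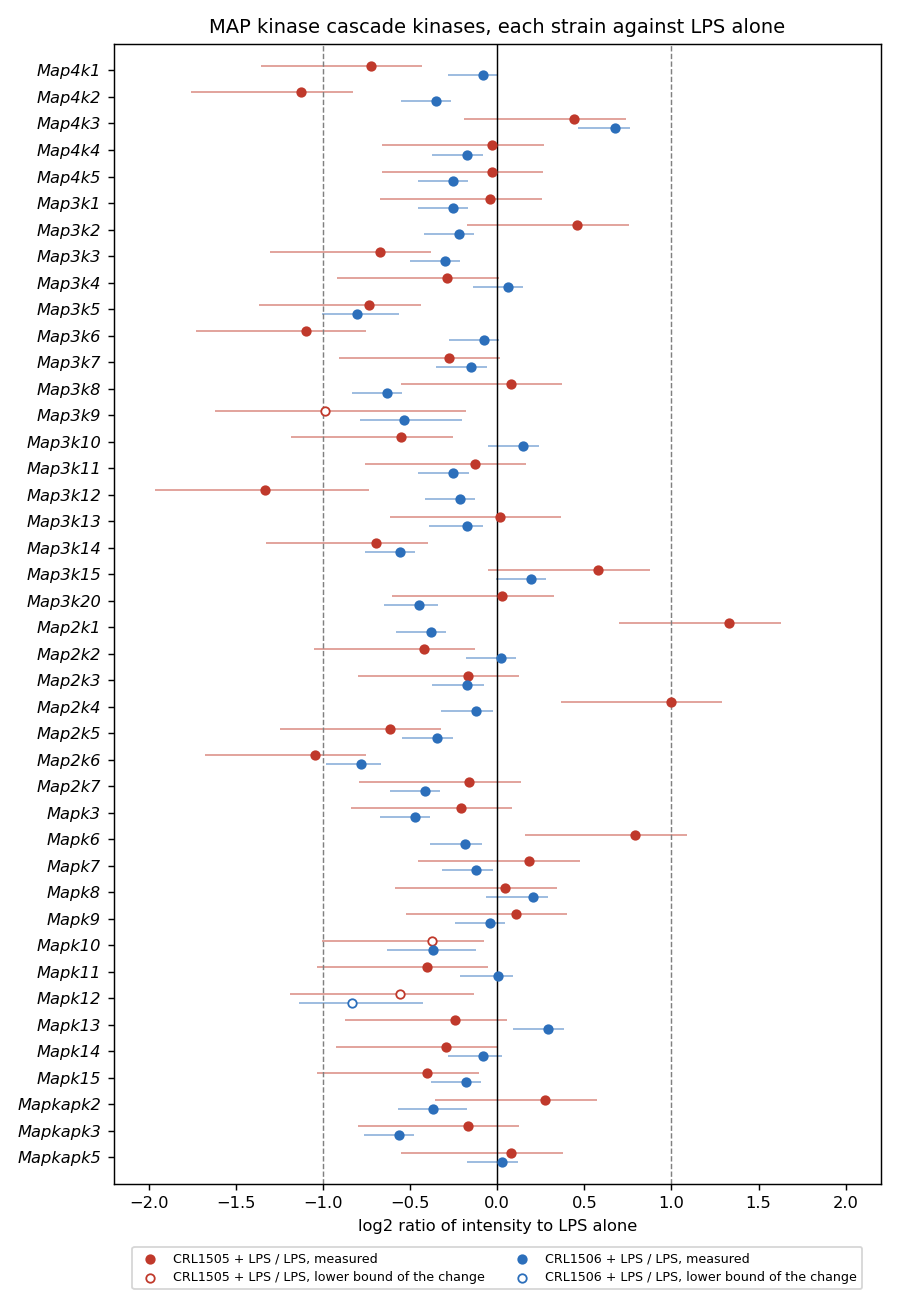
Log2 ratio of array intensity to LPS alone (horizontal axis) for 42 of the kinases compared with LPS, in the order MAP4K, MAP3K, MAP2K, MAPK and MAPKAPK. Red points are CRL1505 + LPS and blue points CRL1506 + LPS, each from 1 array per group, open points are lower bounds of the change, horizontal lines span 7 other normalizations (not a replicate error), and dashed lines mark 2-fold. *Map2k1* and *Map2k4* stand furthest to the right for CRL1505, at 1.33 and just under 1, and *Map3k12* furthest to the left, at -1.33.

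As a group the kinases lay below the typical gene. Their median log2 ratio was -0.17 with CRL1505 over 40 kinases measured on both arrays, and -0.20 with CRL1506 over 42, while the medians over all genes were 0.06 and -0.06. Relative to all genes the kinases were thus lower by a median log2 of -0.22 with CRL1505 and -0.13 with CRL1506. These differences ran from -0.23 to -0.21 and from -0.17 to -0.13 over the 7 other normalizations, of which those that shift whole arrays leave them unchanged by construction. The median against LPS itself depended on the scaling, and for CRL1505 it became 0.13 when arrays were shifted by their medians, a setting that moved the median of all genes to 0.35. With CRL1506, 33 of 42 kinases were below LPS alone, beside 8381 of 14401 genes. Over the other normalizations the kinase count ran from 29, beside 6762 of all genes, to 39, beside 11036. It also depended on reading the brightest probe. By the mean of a gene's probes, bounds included, 26 of 43 kinases were below LPS with CRL1506, beside 8338 of 16356 genes. The medians were then -0.12 for the kinases and -0.01 for all genes with CRL1506, and -0.24 and -0.02 with CRL1505. The kinases also varied less among themselves than all genes did, with an SD of log2 ratios of 0.56 against 0.75 for CRL1505 and 0.29 against 0.54 for CRL1506.

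**Figure D2:**
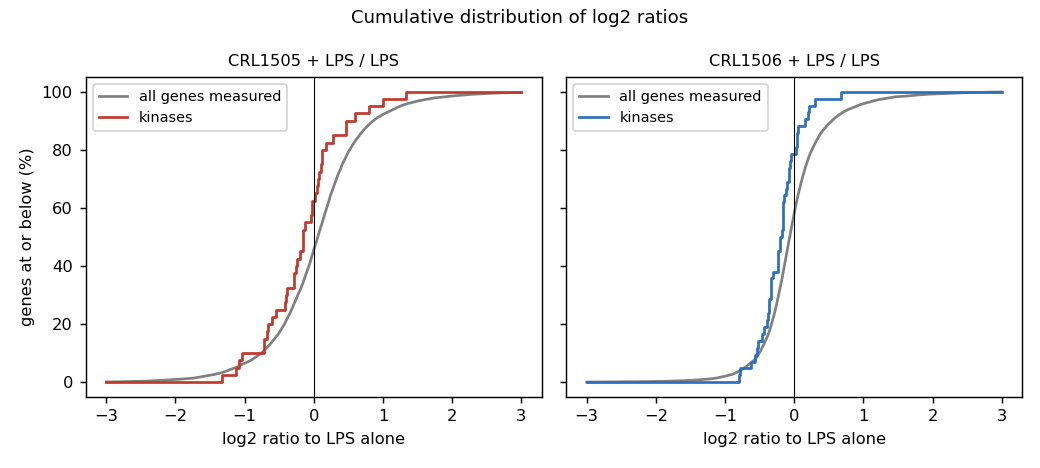
Cumulative share of genes (vertical axis, percent) at or below each log2 ratio to LPS alone (horizontal axis), for the kinases (coloured steps) and for all genes measured on both arrays (grey). The step curves lie above the grey curves around 0, where the kinases' medians of -0.17 and -0.20 sit below those of all genes at 0.06 and -0.06, and they reach 100% sooner on the right.

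At the top of the cascade, *Map4k2* (a kinase that feeds the JNK and p38 branches) was the MAP4K past 2-fold. Its scaled intensity was 988 with LPS, 453 with CRL1505 + LPS and 774 with CRL1506 + LPS. The CRL1505 + LPS array was the lowest, 2.18-fold below LPS alone, while the log2 ratio with CRL1506 was -0.35. Both other probes of the gene gave the same order of arrays, with 203, 76.6 and 156 for one and 264, 112 and 230.1 for the other. Their log2 ratios with CRL1505, -1.41 and -1.24, lay beyond the -1.12 of the brightest probe. These 2 probes are shown because they read neighbouring exon junctions of the transcript and share 20 bases (in capitals), so they are not independent of each other. They lie at chr19:6353165-6353311 and chr19:6353292-6353457 on the plus strand of mm9, the build given in the array files, and span 147 and 166 genomic bases with 60 bases of probe.
Map4k2 probe 1: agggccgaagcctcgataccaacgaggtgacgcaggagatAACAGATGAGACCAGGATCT
Map4k2 probe 2: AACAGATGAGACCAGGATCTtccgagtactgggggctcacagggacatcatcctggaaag

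The other MAP4K genes stayed within 2-fold in both comparisons. *Map4k1* (HPK1, a kinase of blood cells that restrains antigen receptor signalling) measured 6311, 3816 and 5957 on the LPS, CRL1505 + LPS and CRL1506 + LPS arrays, with only the CRL1505 array standing apart. *Map4k3* (GLK) measured 247, 336 and 395, so that both treated arrays were above LPS alone, at log2 ratios of 0.44 and 0.68, with CRL1505 at -0.19 under spike-in scaling. Its second probe gave 0.79 and 0.60. *Map4k4* and *Map4k5* had log2 ratios between -0.26 and -0.03 in both comparisons. The second probe of *Map4k4*, also bright at 4642, 2918 and 3218, was lower, at -0.67 and -0.53.

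Among the MAP3K kinases, 16 of 18 could be compared with LPS, and none was at least 2-fold higher with either strain. Their median relative to all genes was -0.34 with CRL1505 and -0.17 with CRL1506. *Map3k6* (ASK2, a stress-responsive partner of ASK1) measured 442 with LPS, 207 with CRL1505 + LPS and 419 with CRL1506 + LPS. Only the CRL1505 array was low, 2.14-fold below LPS and 2.03-fold below CRL1506 + LPS. Its second probe was lower with CRL1505 by less than 2-fold, with 259.8, 144 and 229 on the same arrays and a log2 ratio of -0.85. *Map3k12* (DLK, best known from axon injury signalling through JNK) measured 223, 88.7 and 192 in the same order of arrays. Here too only the CRL1505 array stood apart, 2.51-fold below LPS, on the one probe of the gene that was well above background (chr15:102329888-102329947, minus strand, mm9). *Map3k9* (MLK1) was at least 1.99-fold lower with CRL1505, a bound, because its 84.6 with LPS was set against a probe that was not well above background there.

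The MAP3K genes best known from TLR4 signalling moved less. *Map3k7* (TAK1, which starts the JNK, p38 and NF-kappaB branches below TRAF6) measured 2738, 2258 and 2471 on the LPS, CRL1505 + LPS and CRL1506 + LPS arrays. Its log2 ratios were -0.28 and -0.15, and all 3 of its probes were below LPS with CRL1505, at most to -0.71. Under the median shift the value read for *Map3k7* with CRL1505 came to 0.02. *Map3k14* (NIK, the kinase of the non-canonical NF-kappaB route) measured 1332, 823 and 905. All 3 of its probes were below LPS with CRL1505, from -0.70 to -0.09, but with CRL1506 the probe read gave -0.56 and the other probes 0.15 and 0.77, so no direction is given there. *Map3k5* (ASK1, a kinase activated by oxidative stress) was lower in both treated groups, from 257 with LPS alone to 155 after CRL1505 and 147 after CRL1506. Its log2 ratios were -0.73 and -0.80, but the second probe gave -0.58 and -0.20.

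*Map3k8* (TPL2), which links TLR4 to MEK1 and ERK, measured 782 with LPS, 826 with CRL1505 + LPS and 504 with CRL1506 + LPS. By this probe the CRL1506 array was the lowest, at a log2 ratio of -0.63 to LPS, and CRL1505 did not differ from LPS by more than the gap between probes, at 0.08. The second probe ordered the arrays differently, with 81.8, 125 and 244 and log2 ratios of 0.61 and 1.58. No direction is therefore given for *Map3k8* with CRL1506. By their brightest probes, the other MAP3K genes measured on both arrays were within 2-fold, from -0.67 for *Map3k3* to 0.58 for *Map3k15* with CRL1505 and from -0.53 for *Map3k9* to 0.19 for *Map3k15* with CRL1506. The second probe of *Map3k3* passed 2-fold with CRL1505, with 288, 130 and 283 on the 3 arrays and a log2 ratio of -1.15.

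The MAP2K level was the one with the widest spread, from -1.05 to 1.33 in log2 ratio with CRL1505. *Map2k1* (MEK1, one of the kinases that activate ERK) measured 2371 with LPS, 5970.2 with CRL1505 + LPS and 1820.0 with CRL1506 + LPS. The CRL1505 array was the highest, 2.52-fold above LPS and 3.28-fold above CRL1506 + LPS, while CRL1506 was slightly below LPS at a log2 ratio of -0.38. The second probe repeated this order, with 740.5, 1602 and 544 and log2 ratios of 1.11 and -0.44. This second probe is printed because it crosses an exon junction, covering 400 genomic bases at chr9:64035128-64035527 (minus strand, mm9), so it matches spliced mRNA and not one unspliced stretch of the gene.
Map2k1 probe 2: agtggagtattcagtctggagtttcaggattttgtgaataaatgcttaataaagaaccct

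*Map2k2* (MEK2), the other kinase directly above ERK, did not follow *Map2k1*. It measured 4664, 3485 and 4738 on the LPS, CRL1505 + LPS and CRL1506 + LPS arrays, so the CRL1505 array was the lowest and the log2 ratios were -0.42 and 0.02. In the same cells and on the same arrays, one ERK-activating kinase was thus past 2-fold higher with CRL1505 and the other below LPS.

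*Map2k4* (MKK4), which activates JNK and can activate p38, was read differently by its 2 probes. The brighter probe measured 1972 with LPS, 3931 with CRL1505 + LPS and 1811 with CRL1506 + LPS, which put CRL1505 1.99-fold above LPS, just short of the threshold, and 2.17-fold above CRL1506 + LPS. The other probe measured 1184, 1198 and 1417, with no excess on the CRL1505 array (log2 ratio 0.02). The mean of both probes came to 0.51. The probe without the excess was designed on another RefSeq transcript of the gene and crosses a junction 15648 genomic bases wide, at chr11:65533101-65548748 (minus strand, mm9). It is shown because the call for *Map2k4* turns on which of the probes is read.
Map2k4 probe 2: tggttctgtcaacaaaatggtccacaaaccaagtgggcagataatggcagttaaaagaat

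*Map2k7* (MKK7, the other JNK-activating kinase) measured 3923, 3509 and 2946 on the LPS, CRL1505 + LPS and CRL1506 + LPS arrays, and all 3 of its probes were below LPS in both treated groups. With CRL1505 these probes lay between -0.20 and -0.16, and the value read came to 0.13 under the median shift. *Map2k3* (MKK3) and *Map2k6* (MKK6) both activate p38. *Map2k3* measured 7253, 6451 and 6441, a log2 ratio of -0.17 with either strain. Its other measured probe, at 888, 623 and 665, was lower, at -0.51 with CRL1505 and -0.42 with CRL1506. *Map2k6* measured 494, 239 and 287, which was 2.07-fold below LPS with CRL1505 and 1.72-fold below with CRL1506, on the one probe well above background (chr11:110374876-110374935, plus strand, mm9). Within the p38-activating pair the treated arrays thus stood further from LPS for *Map2k6* than for *Map2k3*. Under the median shift *Map2k3* came to 0.13 with CRL1505 and *Map2k6* to -0.75. *Map2k5* (MEK5, above ERK5) was lower with CRL1505, at a log2 ratio of -0.62, and its 4 probes lay between -0.62 and 0.00. With CRL1506 the probe read gave -0.34, and the 4 probes ran from -0.34 to 1.46.

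**Figure D3:**
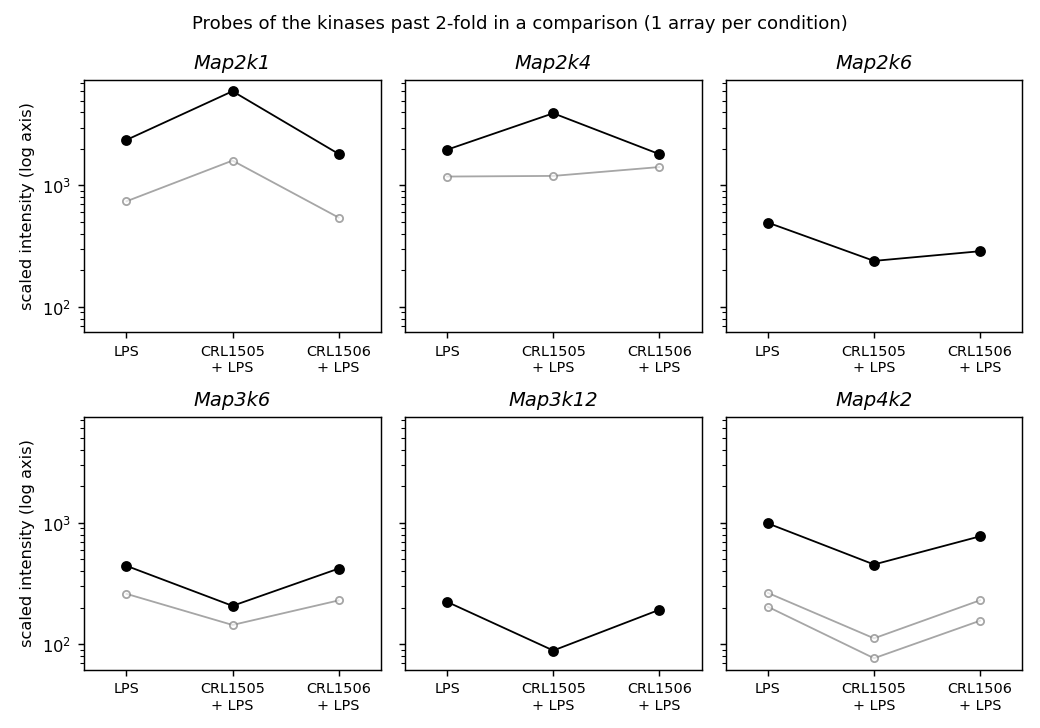
Scaled intensity (vertical, log axis) on the LPS, CRL1505 + LPS and CRL1506 + LPS arrays for every probe well above background on at least 1 array, for the 6 kinases past 2-fold in a comparison. Filled points joined by black lines are the brightest probe, from which the gene's value was taken, and open grey points are its other probes, with 1 array per group and hence no error bars. Both probes of *Map2k1* peak and all 3 probes of *Map4k2* dip on the CRL1505 + LPS array, while one probe of *Map2k4* peaks there and the other stays flat.

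By their brightest probes, the MAP kinases measured on both arrays were all within 2-fold of LPS alone in both treated groups. *Mapk10* with CRL1505 and *Mapk12* with both strains gave only bounds, which do not limit the change to 2-fold. *Mapk3* (ERK1) measured 5510.4 with LPS, 4768 with CRL1505 + LPS and 3972 with CRL1506 + LPS, at log2 ratios of -0.21 and -0.47. It was lowest on the CRL1506 array, an order that turned between the treated arrays with spike-in scaling. For ERK5, *Mapk7* had log2 ratios of 0.18 and -0.12.

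In the JNK branch, *Mapk8* (JNK1) measured 193, 199.7 and 223 on the LPS, CRL1505 + LPS and CRL1506 + LPS arrays. Its 4 measured probes ran from -0.23 to 0.21 in log2 ratio with CRL1505 and from 0.15 to 1.12 with CRL1506. *Mapk9* (JNK2) measured 1227, 1322 and 1190.4, with log2 ratios of 0.11 and -0.04, and its second probe gave -0.71 with CRL1505. Neither gene separated the treated arrays from LPS by more than its own probes differed. *Mapk10* (JNK3, mainly a neuronal kinase) had low signal, at 55.2 with LPS and 42.8 with CRL1506 + LPS, a log2 ratio of -0.37. It was not well above background with CRL1505.

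The p38 branch lay slightly below LPS with CRL1505, except under the median shift, which put 2 of its 3 measured genes above 0. *Mapk14* (p38 alpha, the main p38 kinase of macrophages) measured 12982 with LPS, 10577 with CRL1505 + LPS and 12261 with CRL1506 + LPS, at log2 ratios of -0.30 and -0.08. *Mapk11* and *Mapk13* (p38 beta and delta) had log2 ratios of -0.40 and -0.24 with CRL1505 and 0.01 and 0.29 with CRL1506. The median of these 3 p38 genes with CRL1505 was -0.30, or -0.35 relative to all genes. The relative value ran from -0.35 to -0.24 over the 7 other normalizations, but those that shift whole arrays leave it unchanged by construction. *Mapk12* (p38 gamma) was seen only with LPS, at 62.6 on a spot marked as uneven, which gives bounds of at least 1.47-fold lower with CRL1505 and 1.78-fold lower with CRL1506.

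Of the atypical MAP kinases, *Mapk6* (ERK3, which has a single activation-loop phosphorylation site and acts with MK5) measured 6105 with LPS, 10563 with CRL1505 + LPS and 5375 with CRL1506 + LPS. The CRL1505 array was the highest, 1.73-fold above LPS and 1.97-fold above CRL1506 + LPS. Its other measured probes agreed in sign for CRL1505 but not in size, at 0.33 and 0.31 against 0.79. *Mapk15* (ERK8) had log2 ratios of -0.40 and -0.18, and its second probe, much brighter with CRL1505, rested on a spot marked as uneven and was not read.

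At the end of the cascade, *Mapkapk2* (MK2, the p38 target that stabilises *Tnf* and *Il6* mRNA) measured 145432 with LPS, 176062 with CRL1505 + LPS and 112456 with CRL1506 + LPS. *Mapkapk3* (MK3) measured 6462, 5745 and 4372, lowest with CRL1506, at log2 ratios of -0.17 and -0.56. Its other measured probe gave 0.08 and -0.46. With spike-in scaling the order of the treated arrays turned, at a log2 ratio of CRL1505 to CRL1506 of -0.12. *Mapkapk5* (MK5, a partner of ERK3) had log2 ratios of 0.08 and 0.03. The treated arrays thus bracketed LPS for *Mapkapk2* under the main setting, with log2 ratios of 0.28 and -0.37. Over the 7 other normalizations its log2 ratio with CRL1505 ran from -0.36 to 0.57. With spike-in scaling both treated arrays were below LPS for *Mapkapk2*, so the bracketing was lost there. The difference between the strains, 0.65, stayed above 0 over the 7 other normalizations, from 0.13 to 1.14.

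Which kinases counted as past 2-fold depended on how arrays were scaled, while the direction of those named here with CRL1505 did not. *Map2k1* with CRL1505 ran from 0.70, with arrays scaled to their spike-in probes, to 1.63 with the median shift, and was past 2-fold in 6 of the 7 other normalizations. *Map4k2* was past 2-fold in 6, *Map3k12* in 5, *Map3k6* in 4 and *Map2k6* in 3 of the 7. *Map2k4* passed 2-fold in 1 of them. The spike-in scaling moved the median of all genes to -0.57 for CRL1505, and with it 16 kinases were at least 2-fold lower and none higher. No kinase among these 6 changed sign against LPS with CRL1505 in any of the normalizations.

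**Figure D4:**
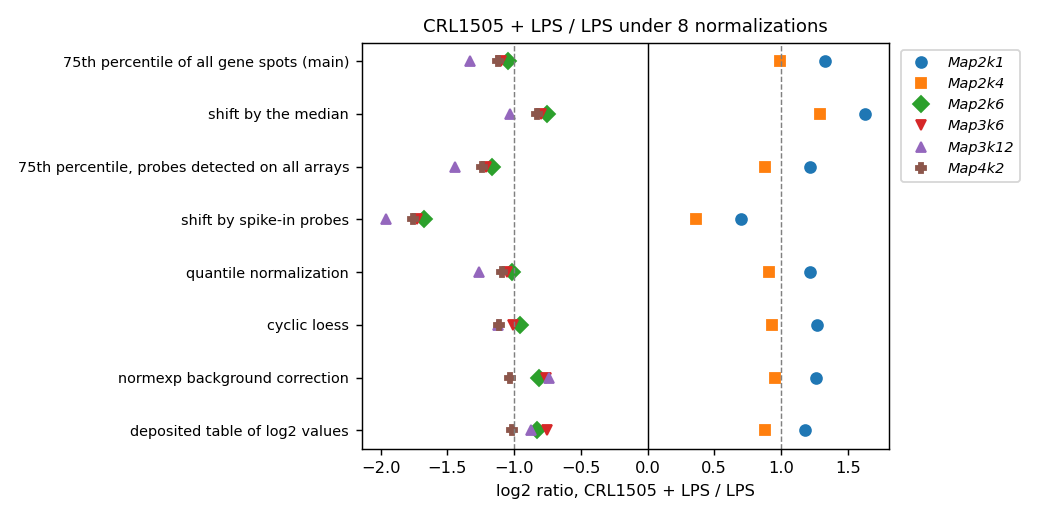
Log2 ratio of CRL1505 + LPS to LPS (horizontal axis) for the 6 kinases past 2-fold in a comparison, under the main setting (top row) and 7 other normalizations (rows), each point from 1 array per group. Dashed lines mark 2-fold. The 6 kinases keep their side of 0 in every setting, with *Map2k1* between 0.70 and 1.63 and *Map3k12* between -1.96 and -0.73.

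Probes of the same kinase did not always go the same way. Of 23 kinases with at least 2 probes measured for CRL1505 and LPS, 17 had all probes on one side of 0, and of 24 for CRL1506 and LPS, 14 did. Between the strains, 11 of 24 did, and in 7 the probes lay more than 1 apart on the log2 scale. Part of this was between probes on RefSeq mRNAs alone, as for *Map2k4*, *Map3k7* and *Map3k20* with CRL1506. Probes designed on Ensembl transcripts stood apart with CRL1506, a split noticed after the values were seen. All 7 such probes measured were above LPS with CRL1506, with a median log2 ratio of 0.77, while 68 probes on RefSeq mRNAs had a median of -0.18. Within a gene the Ensembl probe was higher in 6 of 7 kinases, *Map3k10* being the exception, and with CRL1505 it was higher in 3 of 5, by a median log2 of 0.52. Across the array, the Ensembl probe was higher than the RefSeq probes in 1373 of 1859 genes with CRL1506, by a median log2 of 0.42, but in 815 of 1552 with CRL1505, by 0.03. These probes had low signal, between 61.5 and 284 in scaled intensity for the kinases. In that range the RefSeq probes of all genes had a median log2 ratio of 0.02 and the Ensembl probes one of 0.56 with CRL1506. What separates the probe classes was not tested.

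**Figure D5:**
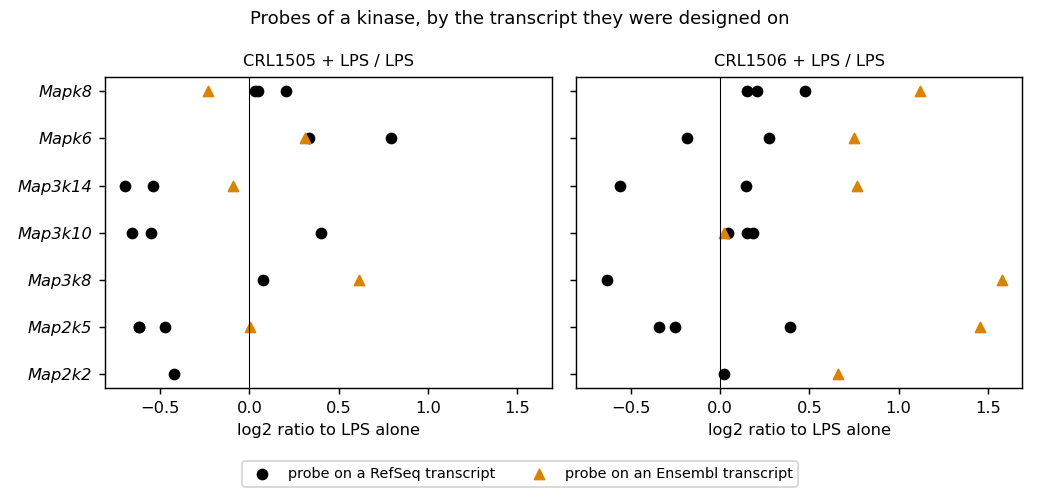
Log2 ratio to LPS alone (horizontal axis) of each measured probe of the 7 kinases that had both a RefSeq probe (black circles) and an Ensembl transcript probe (orange triangles), with CRL1505 + LPS on the left and CRL1506 + LPS on the right, 1 array per group. With CRL1506 the triangles lie above 0 for all 7 kinases and to the right of every circle except for *Map3k10*, and with CRL1505 they lie on both sides of 0, 3 of the 5 measured above it.

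Promoter sequence was available from RefSeq (GRCm38.p6) for 37 of the 46 kinases, as 50 windows, of which the 250 bases upstream of each start were searched on both strands. The GC box GGGCGG, a site for Sp/KLF factors, was present in 27 of 50 windows (54%), against 32.7% of 32851 promoters in the table. The CCAAT box was in 24% against 33.8%, TATAAA in 6% against 12.4%, the AP-1 site TGANTCA in 6% against 6.75%, the CRE TGACGTCA in 2% against 1.55%, the E-box CACGTG in 8% against 6.02%, and a match to the NF-kappaB consensus in 10% against 7.25%. Windows of a gene can overlap, so they are not independent, and a match is only a match of letters. The windows of *Map2k1*, highest with CRL1505, and *Map4k2*, lowest with CRL1505 at the MAP4K level, are shown with their motif matches in capitals. *Map2k1* (chr9:64253606-64253855, minus strand) had 4 GC boxes and 2 CCAAT boxes. *Map4k2* (chr19:6340910-6341159, plus strand) had 5 GC boxes, 1 CCAAT box and 1 NF-kappaB match. Both windows held repeated GC boxes. Of the other kinases past 2-fold in a comparison, *Map3k12* had 1 and 2 in its windows, *Map2k6* at most 1, and *Map3k6* and *Map2k4* none.
Map2k1 promoter: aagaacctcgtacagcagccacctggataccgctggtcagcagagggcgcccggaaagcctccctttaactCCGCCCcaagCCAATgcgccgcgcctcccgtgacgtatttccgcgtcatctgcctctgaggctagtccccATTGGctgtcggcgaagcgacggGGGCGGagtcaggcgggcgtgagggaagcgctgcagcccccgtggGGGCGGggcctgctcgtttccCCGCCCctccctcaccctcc
Map4k2 promoter: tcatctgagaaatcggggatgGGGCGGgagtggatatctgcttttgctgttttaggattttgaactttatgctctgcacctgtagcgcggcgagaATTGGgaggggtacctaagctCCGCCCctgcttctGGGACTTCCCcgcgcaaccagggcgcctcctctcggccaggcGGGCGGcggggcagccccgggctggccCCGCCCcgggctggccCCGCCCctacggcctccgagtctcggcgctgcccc

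Around the kinases, the genes that switch the cascade off and those that it acts on included several past 2-fold. These were listed by role as 78 gene symbols, with earlier results of these data known, and all but the symbol *Zak*, thus 77, were found on the array. With CRL1505, 10 of 72 compared passed 2-fold upward and 4 downward, against the 9.93% and 8.41% of all genes given above. With CRL1506, 2 of 73 compared passed 2-fold upward and 1 downward, against 5.67% and 3.53% of all genes. Of 10 MAP kinase phosphatases, 5 were at least 2-fold higher with CRL1505 (*Dusp1*, *Dusp2*, *Dusp5*, *Dusp7* and *Dusp10*) and 2 lower (*Dusp8* and *Dusp9*), and none was past 2-fold with CRL1506. *Dusp1*, which inactivates p38 and JNK in the nucleus, measured 5011 with LPS, 20958 with CRL1505 + LPS and 8247 with CRL1506 + LPS. Of 16 nuclear targets, *Fos*, *Fosl1*, *Egr1* and *Ddit3* were at least 2-fold higher with CRL1505 and *Fosb* and *Mef2c* lower, and *Egr1* alone was past 2-fold with CRL1506. *Egr1*, an immediate-early gene downstream of ERK, had log2 ratios of 2.46 and 1.45.

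The other groups held few such genes. None of 9 kinases outside the naming rule that could be compared, *Araf* and *Braf* among them, was past 2-fold against LPS, and none of 11 scaffolds and adapters with CRL1505 or 12 with CRL1506. Of 7 kinases activated by MAP kinases, *Rps6ka5* (MSK1, which phosphorylates CREB and histone H3) was at least 2-fold higher with CRL1506. It measured 323 with LPS, 596 with CRL1505 + LPS and 1259.8 with CRL1506 + LPS. On the growth-factor side, *Spry2* (a feedback inhibitor of the Ras to ERK route) was at least 2-fold higher with CRL1505, and *Spry1* was past 2-fold lower with CRL1506 by its bound, a log2 ratio of -1.19 or beyond. No gene of the stress side, *Gadd45a*, *Gadd45b*, *Gadd45g*, *Txn1*, *Traf2* and *Traf6*, was past 2-fold against LPS.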

How the data were processed

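RNA from 3 cultures of RAW 264.7 cells was labelled with Cy3 and hybridised to 1-colour Agilent SurePrint G3 Mouse GE arrays with 60-base probes, 1 array per group. The deposited scanner files hold intensity values per spot from Feature Extraction 12.0.3.1 (file headers), already background-subtracted within the array, and the authors also gave a table of log2 values normalized between arrays, with its settings not given in the sources used here. That table was used as an alternative.

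Log2 processed intensities were centred, array by array, on the 75th percentile over all 59305 gene spots. Spots flagged as outliers were left out and repeated spots averaged. A gene was read from its brightest probe, with a preference for probes that had no spot left out. Where the probe was above background in one group but not the other, a lower bound was taken against the higher of that probe and the lowest signal well above background, and genes dim on both sides were not compared. Scaled intensity is the shifted signal times the 75th percentile of the LPS array. Genes past 2-fold were counted, beside all genes compared, and no test was run. Array number limits the precision. Probe coordinates are those of the files (mm9), with no annotation of that build used here to place them in exons or untranslated regions, and promoters are from RefSeq tables. The steps were tested on simulated data.

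Any of the 46 kinases could be named, and values on each array are given for those past 2-fold and for those best known from TLR4 signalling, except that 1 kinase is not reported here. The members, the lists and the alternatives were chosen with earlier results of these data known, and centring on the median ratio of all genes was added after the values were seen. Python 3.11.15, pandas 2.3.3, NumPy 2.4.6, R 4.3.3 and limma 3.58.1 (quantile, cyclic loess and normexp with an offset of 50) were used.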

Additional observations from a re-analysis of the deposited data

How the results depend on the processing

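With 1 array per group there was no replicate to leave out, and the settings below show only how far the processing moves a value. No paired analysis was possible because each group had a single array. Strain CRL1505 and its slide cannot be told apart, and *Map3k12* and *Map3k9* lay close to background on that array, which had the fewest spots above it. Counts of kinases past 2-fold moved most with the scaling. For CRL1505 against LPS (1 higher, 4 lower), they became 3 and 1 with the median shift and 0 and 16 with spike-in scaling. There, 1 was lower with normexp and 1 with the deposited log2 table, 7 were lower without the filter on dim probes, 2 were higher by the mean of a gene's probes, 3 and 10 passed 1.5-fold and 0 and 0 passed 4-fold. The median log2 ratio of the kinases came to 0.13 with the median shift and -0.80 with spike-in scaling.

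For CRL1506 against LPS (0 and 0), 2 were lower with the median shift, 1 with quantile normalization and 1 with cyclic loess, 1 was higher and 1 lower without the filter, and 1 and 4 passed 1.5-fold.

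For CRL1505 against CRL1506 (2 higher, 2 lower), the counts were 6 and 0 with the median shift, 1 and 6 with spike-in scaling, 1 and 0 with quantile normalization, 1 and 0 with cyclic loess and 1 and 0 with the deposited table. A 75th percentile taken over detected probes alone left 1 higher, normexp left 0 lower, no filter gave 4 lower, the mean of the probes gave 1 and 1, and 6 and 5 passed 1.5-fold while 0 and 0 passed 4-fold. The median came to 0.56 with the median shift and -0.46 with spike-in scaling. Beyond the shift of all genes that a scaling brings, the cause was not tested. The other 87 summary values moved by less than the limit set for each, and no kinase changed sign in a comparison in which it was past 2-fold.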
